A study of Rattus norvegicus with 24 samples.

Results

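The SLC12 family of cation-chloride cotransporters was examined in the rat supraoptic nucleus through the 6 genes Slc12a1, Slc12a2, Slc12a3, Slc12a4, Slc12a5 and Slc12a7. All probe sets with one of these as their only symbol in the platform annotation were taken, which gave 7 of 31042 probe sets and 6 of 14217 genes, with 2 probe sets for Slc12a7. Each Affymetrix array was hybridised with supraoptic RNA pooled from 5 Sprague Dawley rats. The female groups were rats deprived of water for 72 hours with food (5 arrays, 4 used) and euhydrated controls (4 arrays). The male groups were rats aged 10 to 12 weeks that were dehydrated for 3 days (5 arrays) and euhydrated controls (5 arrays). The age of the females is not given in the labels. No genetic change or drug is listed for any group. A further 5 arrays of lactating females had empty columns and were not analysed here. Female and male arrays also differed in RNA extraction, labelling kit and signal software, so that sex and these steps cannot be told apart. The design text allows the arrays of a group to be both biological and technical replicates. Whether each array holds a separate pool is not settled, and p-values measure the spread between arrays.

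Cation-chloride cotransporters move chloride across the cell membrane together with sodium or potassium, driven by the gradients of those cations. The sodium-dependent members (NKCC2, NKCC1 and NCC, encoded by Slc12a1, Slc12a2 and Slc12a3) bring chloride into the cell, and the potassium-chloride cotransporters (KCC1, KCC2 and KCC4, encoded by Slc12a4, Slc12a5 and Slc12a7) let it out. In neurons the balance of these routes sets internal chloride and thereby whether GABA inhibits or excites. The supraoptic nucleus holds the magnocellular neurons that release vasopressin and oxytocin, and work in salt-loaded rats has reported excitatory responses of vasopressin neurons to GABA. NKCC2 is best known from the thick ascending limb of the kidney, where it is the target of loop diuretics.

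The values are array signals in linear units, scaled by the authors to a trimmed mean of about 100 per array. Levels are given in these units and are not compared between probe sets. Each fold change sets dehydrated over control arrays. It is on the log2(value + 32) scale, with arrays brought to a trimmed mean of 500, which understates the change of dim probe sets. Median signals of the arrays used lay between 39.6 and 46.5 in females and between 36.1 and 40.4 in males, and correlations between arrays over probe sets lay between 0.925 and 0.973 in females and between 0.958 and 0.980 in males. Dehydrated female array 5 stood apart from its group. It correlated with the other female arrays at 0.800 to 0.824, and its summed signal of 6 magnocellular genes was 547, against 11172 to 19379 in the other dehydrated females and 9778 to 11378 in control females. It also went against its label. Its Xist signal, from the X-linked transcript of the inactive X chromosome, was 2.59, against 462 to 694 on the other female arrays, and its signal for the Y-linked gene Eif2s3y was 242, against 0.10 to 8.94. The array was left out throughout, and its values are given beside the results it would change.

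The promoters of the 3 genes that passed the test in at least 1 sex are shown first. Each line gives the 250 bases before the annotated start of the gene, 5′ to 3′ on the gene's strand, from RefSeq (assembly GRCr8). Capitals mark CCAAT and the GC box GGGCGG on either strand. The windows lie at chr3:132859340-132859589 (plus strand) for Slc12a1, chr19:50770123-50770372 (minus strand) for Slc12a4 and chr1:31354626-31354875 (minus strand) for Slc12a7.
Slc12a1: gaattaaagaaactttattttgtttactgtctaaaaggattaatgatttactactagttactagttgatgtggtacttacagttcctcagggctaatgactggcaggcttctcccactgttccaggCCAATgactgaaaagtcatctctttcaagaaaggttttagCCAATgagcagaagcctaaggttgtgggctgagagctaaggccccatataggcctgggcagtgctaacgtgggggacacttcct
Slc12a4: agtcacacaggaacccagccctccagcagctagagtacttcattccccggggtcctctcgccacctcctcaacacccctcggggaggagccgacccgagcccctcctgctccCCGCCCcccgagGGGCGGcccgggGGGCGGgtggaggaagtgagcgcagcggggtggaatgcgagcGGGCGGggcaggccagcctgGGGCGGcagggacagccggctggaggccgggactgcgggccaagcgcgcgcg
Slc12a7: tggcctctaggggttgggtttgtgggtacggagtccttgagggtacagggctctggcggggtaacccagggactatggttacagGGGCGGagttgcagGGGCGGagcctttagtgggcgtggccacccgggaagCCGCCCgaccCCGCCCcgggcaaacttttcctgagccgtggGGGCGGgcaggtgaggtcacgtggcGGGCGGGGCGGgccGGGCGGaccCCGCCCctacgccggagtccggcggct

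These promoters differed in base composition. The Slc12a1 window had 43.6% G and C, against 74.8% for Slc12a4, 71.6% for Slc12a7 and a median of 51.2% over all 33469 windows in the table. CCAAT was found in the Slc12a1 window at bases -124 to -120 and -84 to -80 from the start, and a second annotated start 69 bases downstream shares both. The GC box was not found there, while Slc12a4 held 5 matches and Slc12a7 held 9, of which a pair shares a base. On both strands, CCAAT was present in 34.0% of all windows and the GC box in 30.5%. TATAAA, present in 12.9% of windows, was found in the Slc12a3 window alone among the members. No member window held TGACGTCA (1.59% of all windows), its core TGACG (18.2%), TGANTCA (6.34%), GCGNGGGCG (4.29%) or TGGAAA (19.7%), the letters known for CREB, AP-1, EGR and tonicity-responsive factors. These matches describe letters in the windows only.

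Dehydration came with a higher Slc12a1 signal in both sexes and with lower Slc12a4 and Slc12a7 signals in males. In females Slc12a4 was also lower, with a log2 change of -0.69, against -0.79 in males, but did not pass (limma adjusted p = 0.0789). Slc12a2 and Slc12a5, the pair usually cited for neuronal chloride, did not pass the test in either sex. In females 1 of the 5 member probe sets that could be tested passed an adjusted p of 0.05, and it was higher in dehydrated rats, where 2.96% of all tested probe sets passed 1.77% as higher and 1.19% as lower. In males 3 of 6 passed, 1 higher and 2 lower, where 17.7% of all tested probe sets passed, 8.32% as higher and 9.38% as lower. With so few members these shares are descriptions. The tests were made with limma and adjusted by the Benjamini-Hochberg method over the 21729 probe sets kept in each fit.

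**Figure D1:**
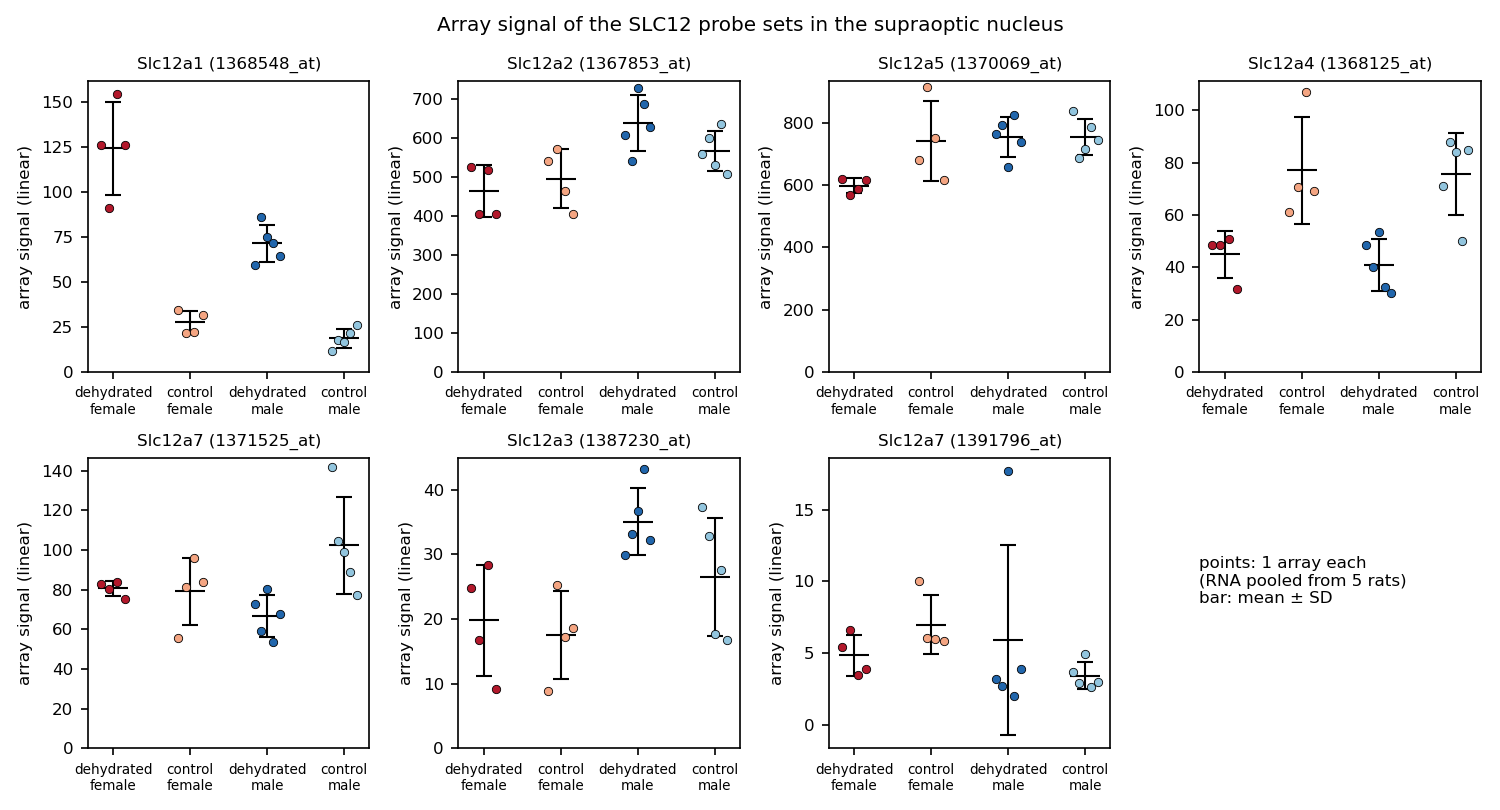
Array signal (linear, scaled to a trimmed mean of about 100) of the 7 SLC12 probe sets, with 1 point per array and the mean ± SD of each group as bars (n = 4 per female group, 5 per male group). Slc12a1 signals of dehydrated arrays lie above all control arrays in each sex, and Slc12a4 signals of dehydrated females lie below all control females.

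Slc12a1 gave signals of 126, 90.7, 154 and 126 in dehydrated females, against 34.4, 21.7, 22.1 and 31.6 in control females. In males the signals were 59.2, 86.1, 75.1, 71.8 and 64.2 after dehydration, against 11.8, 17.9, 16.4, 21.4 and 26.0 in controls. The groups did not overlap in either sex, and the lowest dehydrated array was 2.63 times the highest control in females and 2.28 times in males. Across all tested probe sets, 5.31% in females and 6.82% in males were higher in dehydrated rats without overlap. Mean signals were 124 ± 25.9 in dehydrated and 27.4 ± 6.55 in control females (SD, n = 4 each), a ratio of 4.52, and 71.3 ± 10.4 in dehydrated and 18.7 ± 5.34 in control males (SD, n = 5 each), a ratio of 3.81. On the log2 scale Slc12a1 rose by 1.94 ± 0.19 (SE) in females (limma, adjusted p = 0.000393) and by 1.65 ± 0.16 in males (adjusted p = 8.6e-06). These changes ranked 13 from the top in females and 20 from the top in males among the 21729 tested probe sets. The control arrays alone would have passed the filter on low values in both sexes. Every control signal still lay under the lowest array median of its sex (39.6 in females, 36.1 in males). Detection calls were not used, so the size of the ratios is uncertain. The result rests on a single probe set. With array 5 included, the female change was 1.26 ± 0.65 (adjusted p = 0.655), since that array had a signal of 5.54.

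The kidney tubule list (4 genes) was measured beside Slc12a1, because this gene is best known from that tissue. None of its tested members passed in either sex. Umod, which encodes the uromodulin secreted by the same tubule segment, was under the filter. It averaged 3.86 in dehydrated and 5.36 in control females and 5.64 in dehydrated and 4.54 in control males. Since the tissue was not kidney, a low Umod signal could be foreseen, and no conclusion on Slc12a1 is drawn from this list. Of 6 magnocellular neuron genes, Calb2 (calretinin) and Pdyn (prodynorphin) rose in both sexes, and Cartpt fell in males. Over all tested probe sets, 1.77% rose in females and 8.32% in males, and 9.38% fell in males. The summed signal of the 6 genes was 11172 to 19379 in dehydrated and 9778 to 11378 in control females, and 12929 to 15781 in dehydrated and 11578 to 14224 in control males. The part of these genes in the Slc12a1 result was not tested. In such bulk tissue, more or fewer cells of a type and more or less RNA per cell cannot be told apart.

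Slc12a2 encodes NKCC1, the chloride importer of immature neurons and of many glial and epithelial cells. Its signals were 524, 406, 517 and 406 in dehydrated females, against 541, 571, 463 and 404 in control females. In males they were 608.5, 541, 728, 686 and 629 after dehydration, against 559.5, 599.7, 530, 635 and 508 in controls. The groups overlapped in both sexes. The log2 change was -0.09 ± 0.14 in females (95% interval -0.39 to 0.21, limma adjusted p = 0.765) and 0.17 ± 0.08 in males (-0.01 to 0.34, adjusted p = 0.172). The male change passed when arrays were centred on their median (0.25 ± 0.08, adjusted p = 0.0423), so the call for Slc12a2 in males depends on the scaling.

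Slc12a3, the thiazide-sensitive sodium-chloride cotransporter of the distal tubule, was dim. Its signals were 24.8, 16.7, 28.4 and 9.24 in dehydrated females, against 8.86, 25.3, 17.2 and 18.7 in control females, and it did not pass the female filter on low values. In males the signals were 29.9, 33.1, 36.7, 43.2 and 32.2 after dehydration, against 37.4, 32.8, 17.7, 27.6 and 16.7 in controls. The male groups overlapped, with a log2 change of 0.37 ± 0.18 (limma adjusted p = 0.181).

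Slc12a5 encodes KCC2, the neuronal chloride extruder on which inhibition by GABA depends in mature neurons. Its signals were 619, 569, 588 and 617 in dehydrated females, against 681, 915, 752 and 616 in control females. In males they were 763.5, 793, 657, 825 and 738.5 after dehydration, against 837, 688.5, 717, 786 and 746 in controls. The female groups overlapped only through control array 4, and control array 2 was the highest. Without control array 2 the female log2 change was -0.19 (limma adjusted p = 0.370). The spread was 4.03% of the mean in dehydrated and 17.4% in control females. The male groups overlapped over most of their range. The log2 change was -0.29 ± 0.12 in females (95% interval -0.56 to -0.02, limma adjusted p = 0.231) and 0.00 ± 0.07 in males (-0.15 to 0.15, adjusted p = 0.997). The male interval leaves out a change larger than 0.15 in either direction on this scale, while the female interval does not.

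Slc12a4 encodes KCC1, a widely expressed potassium-chloride cotransporter that takes part in cell volume control. Its signals were 48.5, 48.3, 50.9 and 31.8 in dehydrated females, against 61.2, 70.6, 107 and 69.2 in control females. All 4 dehydrated females lay below every control, as did 7.04% of tested probe sets (5.95% in males). In males the signals were 48.6, 40.2, 53.3, 32.3 and 30.2 after dehydration, against 71.1, 87.7, 84.2, 49.9 and 84.8 in controls. Of the dehydrated males 4 lay below every control, and the overlap rested on control array 4. On the log2 scale Slc12a4 fell by 0.79 ± 0.17 in males (limma, adjusted p = 0.00473), a 1.73-fold lower value. The female change of -0.69 ± 0.19 (unadjusted p = 0.00401) had an adjusted p of 0.0789 and did not pass. With array 5, where its signal was 120, it was -0.43 ± 0.31 (adjusted p = 0.774).

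Slc12a7 encodes KCC4, a potassium-chloride cotransporter known from kidney and inner ear epithelium. Its brighter probe set gave signals of 82.8, 80.2, 84.0 and 75.4 in dehydrated females, against 55.8, 81.2, 96.0 and 83.6 in control females. In males the signals were 72.7, 59.1, 80.3, 53.6 and 67.8 after dehydration, against 141.9, 104.4, 99.0, 88.9 and 77.1 in controls. The female groups overlapped, while 4 of the 5 dehydrated males lay below every control. On the log2 scale it fell by 0.56 ± 0.14 in males (limma, adjusted p = 0.0153), a 1.47-fold lower value, and the female change was 0.05 ± 0.16 (95% interval -0.30 to 0.39, adjusted p = 0.905). Its second, dimmer probe set lay between 2.0 and 17.7 on all 18 arrays used and passed the filter in neither sex, so the male change of Slc12a7 rests on a single probe set.

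**Figure D2:**
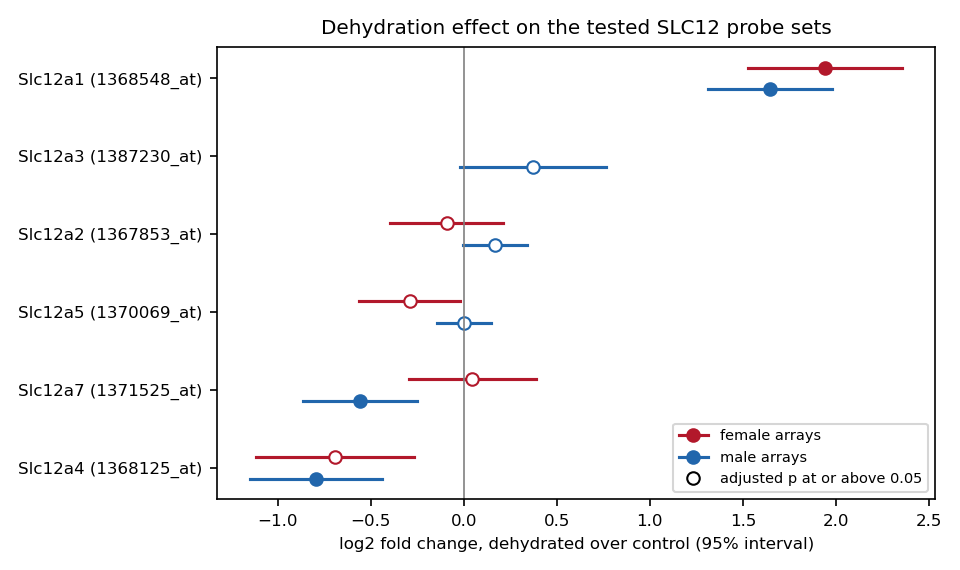
Log2 fold change (dehydrated over control, log2(value + 32) scale) of the tested SLC12 probe sets in female and male arrays, with 95% intervals from limma. Filled points have an adjusted p under 0.05: Slc12a1 in both sexes, at 1.94 and 1.65, and Slc12a4 and Slc12a7 in males, at -0.79 and -0.56.

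Most markers on the list of mural cells and meninges were lower beside the lower Slc12a4 and Slc12a7 signals of males. In females Slc12a4 was lower in dehydrated rats on average but did not pass (44.9 ± 8.81, against 77.1 ± 20.5 in controls, SD, n = 4 each). Slc12a7 was not lower in dehydrated females on average (80.6 ± 3.81, against 79.2 ± 16.9 in controls, SD, n = 4 each). Of 13 such markers, 4 fell in females and 12 in males, where 1.19% and 9.38% of all tested probe sets did. The median log2 changes of the markers were -0.54 and -0.93, against -0.03 and -0.04 over all tested probe sets. The mural cell marker Pdgfrb passed in neither sex, at -0.22 in females and -0.03 in males. Acta2 changed by 0.14 in females, where it did not pass, and by -0.77 in males. The summed signal of the 13 markers was 2367 to 2692 in dehydrated and 3253 to 4839 in control females. In males it was 2399 to 5817 in dehydrated and 4572 to 10104 in control rats. None of the markers had a group mean of 0. The mean of these markers was also used as a covariate, chosen after seeing the data. The male change of Slc12a7 was then -0.09 ± 0.16 (limma adjusted p = 0.818), against -0.56 ± 0.14 without the covariate. That of Slc12a4 was -0.63 ± 0.25 (adjusted p = 0.197), against -0.79 ± 0.17 without it. Neither passed, and male calls over all probe sets were 747, against 3846 without the covariate. Slc12a1 passed with the covariate, at 2.02 ± 0.39 in females (adjusted p = 0.0376) and 1.23 ± 0.20 in males (adjusted p = 0.00339). The covariate itself differs between dehydrated and control arrays, so in the male fit it and dehydration are only partly separate. In females the mean log2 value of the markers was 9.33 to 9.51 on dehydrated and 9.65 to 10.21 on control arrays. No marker level is shared by both female groups, so the female fit rests on extrapolation and cannot tell the markers from dehydration.

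**Figure D3:**
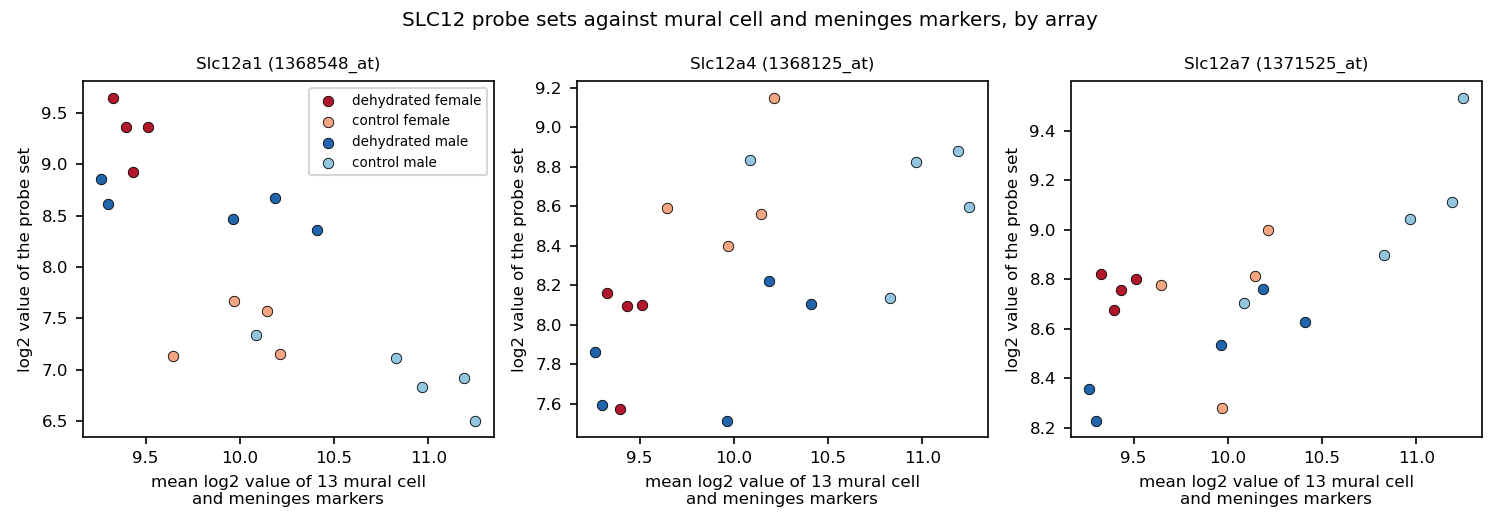
Log2 value of Slc12a1, Slc12a4 and the brighter Slc12a7 probe set on each array against the mean log2 value of 13 mural cell and meninges markers. Female dehydrated arrays lie to the left of all female controls, and male groups overlap along the marker axis. Dehydrated arrays lie above the controls of their sex for Slc12a1.

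Markers of other cell types were lower too, in part. Of the blood genes Hbb and Alas2, which encode a haemoglobin chain and an enzyme of haem synthesis, 1 of 2 fell in females and 2 of 2 in males, with median log2 changes of -0.66 and -0.91. Their summed signal was 732 to 1672 in dehydrated and 1267 to 2431 in control females, and 751 to 1070 in dehydrated and 1576 to 2154 in control males, where the groups did not overlap. In males 3 of 8 astrocyte, 2 of 5 microglia and 2 of 4 choroid plexus and ependyma markers fell. In females 1 of 8, 0 of 6 and 0 of 4 did so by limma. Over all tested probe sets, 9.38% fell in males and 1.19% in females, and with so few markers the counts are descriptions. The summed signal in males was 13180 to 16084 in dehydrated and 15289 to 16609 in control rats for astrocyte markers, 612 to 759 and 679 to 945 for microglia markers, and 317 to 452 and 450.5 to 734 for choroid plexus and ependyma markers. The part of these cell types in the lower Slc12a4 and Slc12a7 signals was not tested. Of 9 oligodendrocyte markers on the array, 4 fell in females and none in males, and their summed signal was 3805 to 6579 in dehydrated and 6698 to 9472 in control females, and 7230 to 12405 in dehydrated and 8277 to 10517 in control males. With these markers as a covariate, Slc12a2 was 0.17 ± 0.21 in females (limma adjusted p = 0.807) and 0.24 ± 0.07 in males (adjusted p = 0.0266). The mean log2 value of these markers did not overlap between the female groups (9.98 to 10.87 in dehydrated, 10.93 to 11.49 in control). That female fit therefore cannot tell the markers from dehydration. None of 6 endothelial markers passed in either sex. The 3'/5' signal ratio of beta-actin, a sign of RNA quality, was 2.56 to 5.30 in dehydrated and 2.44 to 13.3 in control females, and 6.83 to 9.0 in dehydrated and 5.23 to 7.12 in control males. Control female array 2 alone carried the upper end, at 13.3, against 2.44 to 3.65 on the other female controls, and its GAPDH ratio was 4.12, against 1.02 to 1.05. Its median correlation of 0.937 with the other female arrays was the lowest among those used. The part of RNA quality in these results was not tested.

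The difference between the female and male dehydration effects was tested directly on all 18 arrays. No member passed, where 0.0322% of all probe sets (7) did, 0.0184% with a positive and 0.0138% with a negative difference, and 2177 probe sets had an unadjusted p under 0.05. Slc12a1 changed by 0.30 ± 0.25 more in females (95% interval -0.22 to 0.82, limma adjusted p = 0.767), and the difference for Slc12a4 was 0.10 ± 0.27 (-0.45 to 0.66, adjusted p = 0.950). For Slc12a7 the female effect minus the male effect was 0.60 ± 0.22 (0.14 to 1.06, unadjusted p = 0.0126, adjusted p = 0.341). For Slc12a5 it was -0.29 ± 0.14 (-0.58 to -0.01, unadjusted p = 0.0449, adjusted p = 0.482). The passing of Slc12a4 and Slc12a7 in males and not in females is therefore not shown to be a difference between the sets.

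The WNK kinases and their targets SPAK and OSR1 phosphorylate these cotransporters, which activates the sodium-dependent ones and inhibits the KCCs. Of 14 genes of this signalling list measured, 1 rose in females and 3 in males, and none fell, with median log2 changes of 0.03 and 0.01. Over all tested probe sets, 1.77% rose and 1.19% fell in females, and 8.32% rose and 9.38% fell in males. The counts of this list are descriptions. Cul3, the cullin of the ubiquitin ligase that degrades WNK kinases, rose by 0.51 ± 0.10 in females (limma adjusted p = 0.0262) and 0.49 ± 0.05 in males (adjusted p = 2.62e-05). Stk39, which encodes SPAK, averaged 542 in dehydrated and 420.1 in control females and 562 in dehydrated and 392 in control males. It rose by 0.51 ± 0.06 in males (adjusted p = 7.09e-05), and its female change of 0.37 ± 0.12 had an adjusted p of 0.112. Ppp1ca, a catalytic subunit of protein phosphatase 1, rose by 0.40 ± 0.06 in males (adjusted p = 0.000245). Wnk1 changed by -0.14 ± 0.10 in females (adjusted p = 0.496) and -0.18 ± 0.07 in males (adjusted p = 0.0716), and Oxsr1, which encodes OSR1, by -0.05 ± 0.10 and -0.10 ± 0.10 (adjusted p = 0.852 and 0.527). Wnk2 changed by -0.23 ± 0.14 in females (adjusted p = 0.415) and -0.19 ± 0.08 in males (adjusted p = 0.117). Wnk3 and Wnk4 had no probe set of a single symbol and were not analysed here. Phosphorylation itself was not measured.

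Of 12 regulators and partners of KCC2 tested in females none passed by limma, where 2.96% of all tested probe sets did. Their median log2 change was -0.22, against -0.03 over all probe sets. Of 13 tested in males 1 fell, where 9.38% of all tested probe sets did. The male median was -0.04, against -0.04 over all probe sets. The gene that fell was Usf1, a transcription factor, at -0.67 ± 0.21 (limma adjusted p = 0.0429) with mean signals of 15.5 in dehydrated and 27.0 in control males. Both means lay under the lowest male array median (36.1), and the dehydrated mean lay under the male filter cut, a signal of 15.6. Usf1 was thus kept only through the control arrays, and no weight is put on its call. Ntrk2, which encodes the BDNF receptor TrkB, changed by -0.14 ± 0.15 in females (adjusted p = 0.652) and -0.02 ± 0.06 in males (adjusted p = 0.834). Bdnf, its ligand, was under the filter in females, with mean signals of 11.0 in dehydrated and 25.3 in control rats, and changed by 0.18 ± 0.20 in males (adjusted p = 0.588).

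Among other routes for chloride and bicarbonate, 1 of 19 tested genes rose and 1 fell in females, and 4 of 19 rose and 1 fell in males. Median log2 changes were 0.03 and 0.08. Of all tested probe sets 1.77% rose and 1.19% fell in females, and 8.32% rose and 9.38% fell in males, so these counts are descriptions. Car4, a membrane-bound carbonic anhydrase, rose by 0.55 ± 0.11 in females (limma adjusted p = 0.0267) and 0.52 ± 0.12 in males (adjusted p = 0.00833). Car2, a cytosolic carbonic anhydrase, fell by 0.51 ± 0.12 in females (adjusted p = 0.0451) and changed by -0.03 ± 0.08 in males (adjusted p = 0.845). In males the volume-regulated anion channel subunits Lrrc8d and Lrrc8a rose by 0.40 ± 0.08 and 0.18 ± 0.05 (adjusted p = 0.00276 and 0.0213). The anion exchanger Slc4a3 rose by 0.29 ± 0.07 (adjusted p = 0.0108), and the calcium-activated chloride channel Ano1 fell by 0.47 ± 0.15 (adjusted p = 0.0429). No gene of the 3 lists passed the test of the difference between the sets.

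**Figure D4:**
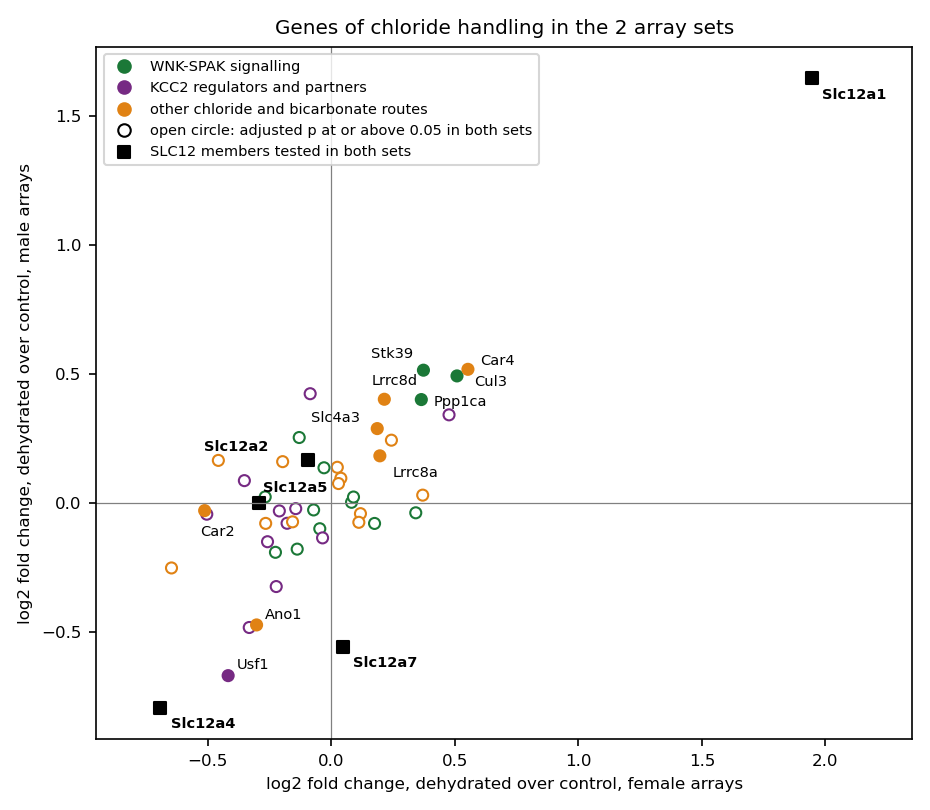
Log2 fold change in female arrays (x axis) against that in male arrays (y axis), dehydrated over control, for genes tested in both sets. Squares are SLC12 members and circles are genes of the 3 chloride lists. Circles are filled and named where the adjusted p is under 0.05 in at least 1 set. Slc12a1, at 1.94 and 1.65, lies apart from the listed genes.

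The genes most like a member across arrays were taken by the mean of Pearson's r within the 8 female and the 10 male arrays. This was done over 14663 probe sets with a single gene symbol, kept in both sets, as a description. The arrays share the contrast of dehydrated with control rats. For Slc12a2 these were Adap1 (0.854), Mal (0.816), Nefh (0.787), Tgfa (0.781) and Klhl30 (0.768). For Slc12a5 they were Hecw1 (0.877), Podxl2 (0.853), Asic1 (0.851), Rps6ka6 (0.838) and Kcnc1 (0.829). For Slc12a1, added after its values were seen, they were Azin1 (0.985), Gpr158 (0.974), Vma21 (0.974), Zdhhc2 (0.972) and Rasd1 (0.972). Azin1 and Rasd1 had log2 changes of 1.15 and 1.48 in females and 1.17 and 1.84 in males.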

How the data were processed

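Supraoptic RNA was measured on Affymetrix rat arrays. The authors deposited linear signal intensities, 1 per probe set, made with GCOS 1.2 for male arrays and MAS5 for female arrays, per the submitters' processing notes. Per the labels' protocols, QIAzol, RNeasy columns and Ambion amplification were used for male RNA, and Trizol and an Affymetrix labelling protocol for female RNA. Scan dates and detection calls were not used here. Of 24 samples 19 held values and 18 were used. No pair of arrays was identical.

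Each array's 2% trimmed mean was set to 500, and log2 was taken after adding 32. After removal of 57 controls, probe sets with a mean above the 30th percentile were kept (21729 of 31042). Of these 31042, 20826 had a single symbol, 436 several and 9780 none. The number of arrays limits the precision, with a median SE of 0.17 in females and 0.12 in males. Tests used limma 3.58.1 in R 4.3.3 (lmFit, eBayes with trend) within each set, and 1 fit of both sets for the difference, with a threshold of 0.05 on the adjusted p. Alternatives were other scalings, offsets and filters, array weights, 1 fit of all 4 groups, each array left out, array 5 included and, chosen after seeing the data, marker means as covariates. The members and gene lists were chosen with earlier results of these data known. Genes were named if they were members or up to 6 genes per list and comparison that passed, the WNK kinases, Stk39, Oxsr1, Bdnf and Ntrk2 always, or were the 5 most like Slc12a2 or Slc12a5; others named were chosen after their values were seen. Promoters came from RefSeq.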

Additional observations from a re-analysis of the deposited data

Results flagged for a closer look

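Within groups, an array standing far from the nearest of its group was looked for in 28 groups of values (7 probe sets in 4 groups), of which chance marks about 1 in 20. For Slc12a4, dehydrated female array 4 had the lowest signal, 31.8, against 48.3 to 50.9 on the other 3 arrays of its group. For the dimmer Slc12a7 probe set, dehydrated male array 3 had 17.7, against 2.0 to 3.9 in the rest of its group, and control female array 1 had 10.1, against 5.82 to 6.02.

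Dehydrated female array 5, which went against its label and entered no comparison, lay above every control female for 4 probe sets. Its signals were 1869 for Slc12a2, 67.5 for Slc12a3, 119.6 for Slc12a4 and 203 for the brighter Slc12a7 probe set, against highest control values of 571, 25.3, 107 and 96.0. Its summed choroid plexus and ependyma markers were 10367, against 510 to 1805 in the other dehydrated females and 361 to 1250 in control females.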

How the results depend on the processing

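Slc12a1 passed in all 8 female and all 10 male fits that left out 1 array. Its change was 2.17 in females and 1.96 in males with an offset of 1, and 1.59 and 1.24 with an offset of 100. In males it fell under the filter at the 50th percentile and has no value there. Slc12a4 and Slc12a7 passed in all 10 male fits that left out 1 array (adjusted p up to 0.0159 and 0.0422). In females Slc12a4 passed with array weights (adjusted p = 0.0437) and in 1 fit of all 4 groups (adjusted p = 0.0293). Over the 12 female alternatives other than leaving 1 array out, its log2 change ranged from -0.77 to -0.32. The same range was -0.66 to -0.19 for Slc12a5 and -0.46 to 0.31 for Slc12a2, and neither passed in any of them. Female calls over all probe sets, 643, were 290 without the trend, 1709 with array weights, 2322 in 1 fit of all 4 groups, 1 with array 5, 288 with mural and 19 with oligodendrocyte markers as covariates, and 210 to 886 without 1 array (886 without control array 2, 806 without dehydrated array 3 and at most 346 without any of the other 6). Female members passing, 1, were 2 with array weights, 2 in the joint fit, 0 with array 5 (adjusted over all probe sets by limma) and 1 in every fit without 1 array. Male calls, 3846, were 2270 in the joint fit, 747 with mural markers and 2839 to 4149 without 1 array, and members passing, 3, were 1 with mural markers. Centred on the median, the split of higher and total calls was 348 of 462 in females, against 384 of 643, and 2710 of 3801 in males, against 1808 of 3846. Calls for the difference, 7, were 20 with quantile normalization, 12 centred, 11 with an offset of 100, 2 without a filter, 114 with array weights, 0 with array 5 and 1 to 55 without 1 array. The sign turned for female Slc12a2 (0.31 with array 5, 0.17 with oligodendrocyte markers), female Slc12a7 (-0.10 to 0.14 without 1 array, negative without control array 1) and male Slc12a5 (-0.086 with quantile normalization, -0.083 with mural and -0.040 with oligodendrocyte markers, -0.032 to 0.049 without 1 array). For the difference it turned for Slc12a4 (-0.017 with quantile normalization) and, with array 5, for Slc12a1 (-0.39), Slc12a2 (0.14) and Slc12a3 (0.053). Without 1 array the difference ranged from 0.19 (without dehydrated female array 3) to 0.43 for Slc12a1, 0.010 to 0.26 for Slc12a4, -0.37 to -0.19 (without control female array 2) for Slc12a5 and 0.46 to 0.70 for Slc12a7, with none past the threshold. The causes were not tested. No paired analysis was possible because dehydrated and control arrays share no replicate numbers in the labels.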
